A study of Rattus norvegicus with 31 samples.

Results

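Blood cells of rats whose dams were food-restricted early in pregnancy, and which received leptin while suckling (CR-L, 13 samples), were compared with those of control offspring (WT, 7 samples). The samples were taken by their titles, 20 of the 31 arrays of the series. The 11 arrays of restricted offspring without leptin (CR) took no part in the difference between groups and entered the fit only through its shared estimate of the spread. WT dams were not restricted, and their pups suckled without supplement. For CR-L, the dams ate 20% less from day 1 to day 12 of pregnancy, and the pups received leptin each day until postnatal day 21. Doses went up day by day, from 1.0 ng at first to 43.8 ng at last, set at 5 times the pups' daily intake with milk. All animals then ate chow freely for 4 months before blood was drawn. There is no group of leptin-treated offspring from unrestricted dams, so leptin without restriction was not measured. The difference between CR-L and WT holds restriction and leptin together. The study mated 16 rats, and the labels name neither dam nor sex for a sample. Samples may therefore share a litter, and p-values may be too small.

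RNA came from PBMC, the mononuclear cells of peripheral blood, which are mostly lymphocytes with some monocytes. Each array measured 1 sample in red (Cy5) against the same reference pool in green (Cy3), made from 5 samples per group. Every level below is a log2 ratio of a sample over that pool, so 0 means the level of the pool. A difference is the CR-L mean minus the WT mean, with its SE from limma, and p-values were adjusted over all features by the method of Benjamini and Hochberg (threshold 0.05).

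Leptin is a hormone of fat tissue that signals through its receptor to the kinase Jak2 and the transcription factor Stat3. It reports energy stores to the brain, and receptors on lymphocytes and monocytes link it to immune function as well. In blood leukocytes, activation of Toll-like, TNF and antigen receptors runs through adaptors and ubiquitin ligases to the transcription factor NF-kB. NF-kB then switches on chemokines, adhesion molecules and its own inhibitors.

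Median red intensity was 77.0 to 93.9 on 19 of the 20 arrays, against a local background of 27.0 to 30. WT replicate 6 stood apart with a median red intensity of 235 and 83.6% of red spots well above background. The lowest share was 58.8% and the highest on any CR-L array 64.4%. Among the listed markers found on the array by symbol, 22 of 22 of T cells, 16 of 16 of B cells and 15 of 17 of monocytes passed the filter on dim probes. So did 15 of 18 of granulocytes, 13 of 15 of platelets and 29 of 30 of erythroid cells. Of these, a PBMC preparation should largely remove granulocytes and erythroid cells. Passing the filter does not measure how many such cells were present.

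Of 22262 features tested, 787 differed between CR-L and WT (3.54%). Of these, 477 were higher in CR-L (2.14% of those tested) and 310 lower (1.39%). At an unadjusted p under 0.05 there were 3700 (16.6%). The differences were small. The median size among the 787 was 0.27 on the log2 scale, or about 1.2-fold, 381 were under 1.2-fold, and 14 exceeded 1.5-fold, 3 higher and 11 lower. Value ranges of the groups did not overlap for 38 of the 787, against 39 of all features (0.175%). Within the 7 slides that held both groups, 575 of the 787 had the same sign on every slide, against 1669 of all features (7.50%). Overlap and sign were read from the same arrays that gave the calls. Higher shares among the called features thus follow from the selection and are no separate support. With slide as a block, 834 features were called (3.75%), 662 of them among the 787. A fit on the 20 arrays alone called 552 (2.48%), 519 of them among the 787.

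The number of features called depended strongly on how the log ratios were normalized. Loess within each array gave the 787. Subtracting each array's median in place of loess left 75, of which 72 were higher. Scaling the arrays to equal spread after loess left 119. Median centring without WT replicate 6 left 1. The last 2 settings were chosen after the data had been seen. Without WT replicate 6, loess gave 525 features, and leaving out any other single array gave between 423 (WT replicate 4) and 1099 (CR-L replicate 10). Of the 94 called genes that the rule for named genes chose, all kept their sign after scaling, and all but the ribosomal protein genes Rps9 and Rpl12 kept it under median centring. In all, 21 kept their call under median centring, each of them higher in CR-L, and 20 kept it after scaling. Only 7 of the 94 kept it under both: Adam1a, Cptp, Cxcr3, Hyal2, Pdia4, Tmem33 and Zfp260. None of the 94 kept it under median centring without WT replicate 6, where the lowest adjusted p was 0.0951.

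**Figure D1:**
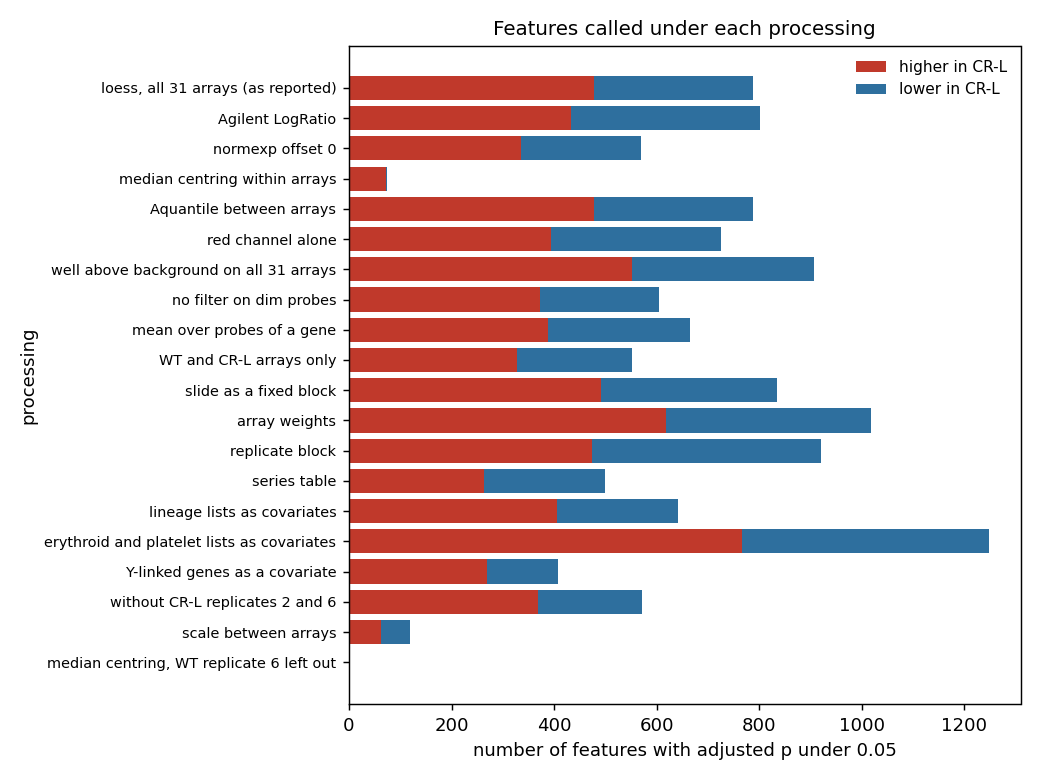
Number of features with an adjusted p under 0.05 (x axis) under each processing (y axis), split into higher (red) and lower (blue) in CR-L than WT. The processing reported here called 787, median centring 75, scaling between arrays 119, and median centring without WT replicate 6 only 1.

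Genes of NF-kB signalling held many of the leading decreases. Of 36 members of the list of NF-kB subunits, inhibitors and adaptors, 6 fell and 2 rose, a share of 22.2% against the 3.54% of all features. The lists were chosen with earlier results of these data known. A share above that of all features is therefore a description and not support. The median difference of the 36 was -0.04 against 0.01 for all features, and 25 lay below 0. Promoters are shown for the 3 called members with the smallest p among those that hold the kB consensus, the sequence NF-kB binds. Each line gives 130 bases before and 30 after the RefSeq start (build GRCr8), 5′ to 3′, with matches in either direction in capitals.
Tnfaip3 (chr1:15543950-15544109, minus strand): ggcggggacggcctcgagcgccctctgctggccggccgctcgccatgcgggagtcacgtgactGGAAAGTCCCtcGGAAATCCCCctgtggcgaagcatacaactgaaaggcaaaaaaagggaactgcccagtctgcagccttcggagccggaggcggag
Bcl3 (chr1:88613526-88613685, minus strand): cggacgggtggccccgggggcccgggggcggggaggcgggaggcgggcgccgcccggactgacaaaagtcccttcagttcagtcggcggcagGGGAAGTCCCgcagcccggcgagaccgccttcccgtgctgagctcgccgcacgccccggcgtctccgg
Nfkbiz (chr11:58251591-58251750, plus strand): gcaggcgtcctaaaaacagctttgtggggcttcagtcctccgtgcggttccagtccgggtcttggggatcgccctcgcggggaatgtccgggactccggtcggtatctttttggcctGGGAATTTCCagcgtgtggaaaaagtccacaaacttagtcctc
The kB consensus was searched on both strands over 300 bases, 250 before and 50 after each start. It was present in 1142 of 27457 promoters (4.16%), in 11 of the 29 promoters that matched a tested member of the list (37.9%), and in 4 of the 6 that matched a called one (Bcl3, Nfkbia, Nfkbiz and Tnfaip3). A match is a description of sequence and not a measured site of binding.

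Among the upstream adaptors, Traf6, the ubiquitin ligase that relays signals of Toll-like and interleukin 1 receptors, lay between 0.04 and 0.83 in WT (median 0.32) and between -0.87 and 0.33 in CR-L (median -0.20). In 12 of 13 CR-L samples it was below the lowest WT sample, and only CR-L replicate 9 overlapped. The difference was -0.68 ± 0.14 (adjusted p = 0.00479) and negative within all 7 slides. Its probe lies at chr3:86846359-86846418 in the files' rn4 coordinates. Birc3, a ubiquitin ligase of TNF receptor complexes, had medians of 0.36 in WT (-0.08 to 0.59) and -0.29 in CR-L (-0.87 to 0.23). It was lower by -0.66 ± 0.15 (adjusted p = 0.0118). Both genes kept their call whichever single array was left out.

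The other 4 members that fell encode inhibitors of NF-kB or nuclear IkB proteins. Of the inhibitors Nfkbie and Tnip1, picked out after their values had been seen, Nfkbie was at -0.30 ± 0.09 (adjusted p = 0.0674) and Tnip1 at 0.04 ± 0.06 (adjusted p = 0.842). Nfkbiz, a nuclear IkB protein, ranged from 0.27 to 0.97 in WT with a median of 0.49, and from -1.46 to 0.52 in CR-L with a median of -0.13. In 10 of 13 CR-L samples it was below every WT sample, and CR-L replicates 6 and 2 were the lowest, at -1.46 and -1.02. The difference was -0.73 ± 0.19 (adjusted p = 0.0259). Nfkbia, the inhibitor that holds NF-kB in the cytoplasm, had medians of 0.48 (0.12 to 0.68) and -0.21 (-1.0 to 0.48), a difference of -0.64 ± 0.17 (adjusted p = 0.0264). Tnfaip3, which encodes the ubiquitin-editing enzyme A20 that ends NF-kB signalling, had medians of 0.16 (-0.17 to 0.58) and -0.45 (-1.26 to 0.23). It was lower by -0.71 ± 0.18 (adjusted p = 0.0229), with 11 of 13 CR-L samples below all of WT. Bcl3, another nuclear IkB protein, had medians of 0.18 (-0.30 to 0.58) and -0.21 (-0.87 to 0.02). Its groups overlapped more, since only 5 CR-L samples lay below every WT sample, and the difference was -0.49 ± 0.13 (adjusted p = 0.0254). These 4 genes had negative differences within all 7 slides, but each lost its call without some single WT array. Without WT replicate 4, the adjusted p was 0.0677 for Nfkbiz, 0.0689 for Nfkbia, 0.0732 for Tnfaip3 and 0.0568 for Bcl3. Without WT replicate 6 the values were 0.0679, 0.0671, 0.0541 and 0.0808. Nfkbiz was also lost without WT replicate 7 (0.0572), Nfkbia and Bcl3 without WT replicate 2 (0.0663 and 0.0711), and Bcl3 without WT replicate 5 (0.0604). With the mean over probes of a gene, and in the 20 arrays alone, Nfkbiz was not called either.

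The 2 members that rose do not share this pattern. Traf1, an adaptor of TNF receptors that is itself induced by NF-kB, was higher by 0.40 ± 0.11 (adjusted p = 0.0386). Tnip2, which binds A20, was higher by 0.17 ± 0.05 (adjusted p = 0.0461). Both were picked out here after their values had been seen. The NF-kB subunit Rela, also picked that way, had a difference of -0.14 (adjusted p = 0.355).

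Of 31 cytokines, chemokines and adhesion molecules, 3 fell and none rose (9.68% called, against 3.54% of all features). The count was 1 without WT replicate 4 or 6. Ccl3, a chemokine that draws monocytes and T cells, lay between -0.01 and 0.71 in WT (median 0.60) and between -1.05 and 0.41 in CR-L (median -0.14). It was below all of WT in 10 of 13 CR-L samples, and CR-L replicate 6 was the lowest. The difference was -0.72 ± 0.15 (adjusted p = 0.00469). Icam1, the adhesion molecule that leukocytes use to hold on to other cells, had medians of 0.29 (0.11 to 0.77) and -0.10 (-0.93 to 0.17) and fell by -0.54 ± 0.13 (adjusted p = 0.0150). Its adjusted p was 0.0515 without WT replicate 4 and 0.0525 without WT replicate 6. For Tnf, the central inflammatory cytokine, the difference was only -0.22 ± 0.06 (adjusted p = 0.0407), and 11 of the 20 single arrays ended that call when left out (adjusted p up to 0.135, without WT replicate 4). Among 36 immediate early and activation genes, 2 fell and none rose (5.56%, near the 3.54% of all features). None was called without WT replicate 5, 6 or 7. Cd69, an early activation marker of lymphocytes, had medians of 0.41 (0.00 to 0.52) and -0.23 (-1.26 to 0.36) and a difference of -0.61 ± 0.18 (adjusted p = 0.0437), a call that 13 of 20 single arrays ended (up to 0.104, without WT replicate 4). Gadd45a, a stress gene that restrains the cell cycle, was lower by -0.31 ± 0.08 (adjusted p = 0.0244), and the call ended without WT replicate 5, 6 or 7 (0.0553, 0.0528 and 0.0513).

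**Figure D2:**
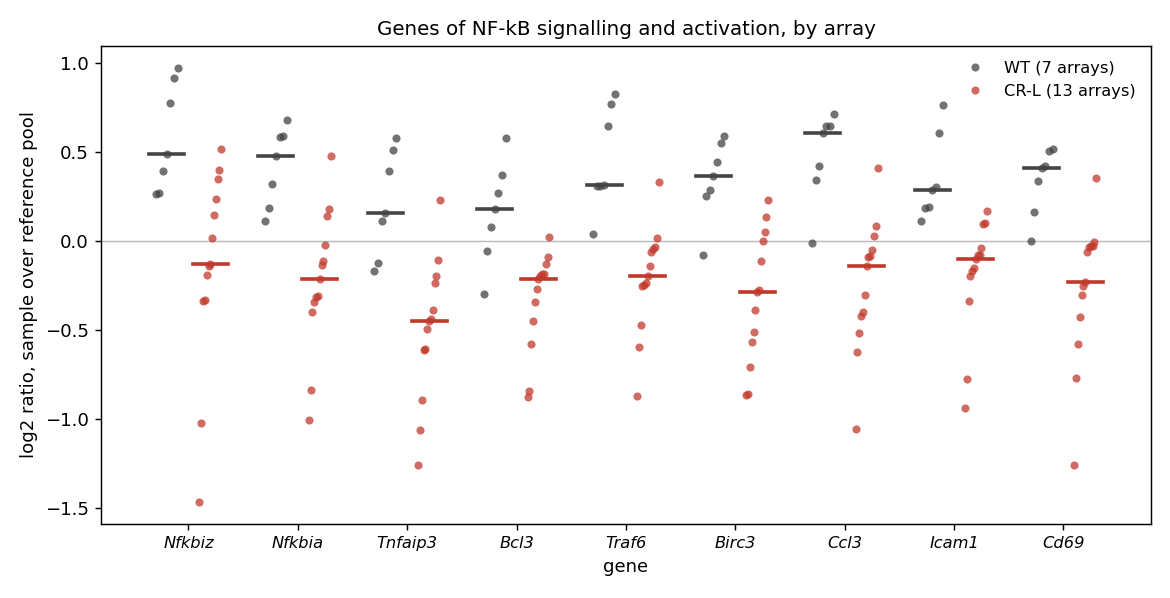
Log2 ratio of sample over reference pool (y axis) for 9 genes of NF-kB signalling and activation (x axis), 1 point per array, WT in grey and CR-L in red, bars at the group medians. The CR-L median lies below the WT median for each gene, from 0.16 to -0.45 for Tnfaip3 and from 0.60 to -0.14 for Ccl3, and the ranges overlap.

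The count of NF-kB members called moved with single arrays. It was 2 without WT replicate 4, 3 without WT replicate 6, 5 without WT replicate 2 or 5, and 6 to 10 without any other array. Without CR-L replicates 2 and 6 together, the lowest of the cytokine list, it was 3. It was 0 under median centring and 0 after scaling, with Nfkbiz at -0.59 (adjusted p = 0.204) and -0.77 (0.0889). Per-array means of the list were 0.02 to 0.13 in WT and -0.22 to 0.03 in CR-L.

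The lists of receptors held 1 called gene each, too few to set apart from the 3.54% of all features. In the list of 18 Toll-like receptors, co-receptors and adaptors 1 rose (5.56%), the adaptor Ticam1 (TRIF), which carries signals of Tlr3 and Tlr4. Its medians were -0.34 in WT (-0.52 to 0.11) and 0.18 in CR-L (-0.34 to 0.50), and the difference was 0.44 ± 0.10 (adjusted p = 0.0109). Of 17 chemokine receptors 1 rose (5.88%). Cxcr3, the receptor of effector T and NK cells for interferon-induced chemokines, lay between -0.50 and -0.09 in WT (median -0.40) and between -0.16 and 0.85 in CR-L (median 0.23). In 11 of 13 CR-L samples it was above every WT sample, and CR-L replicates 2 and 6 were the highest. The difference was 0.54 ± 0.11 (adjusted p = 0.00470), positive within all 7 slides. No member of the 30 interferon response genes was called, and 3 had an unadjusted p under 0.05, all lower (10.0%, against 16.6% of all features). Irf1, an interferon-induced transcription factor, had the smallest p, at -0.27 ± 0.10 (adjusted p = 0.157).

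Chaperones fold and refold proteins. Of 45 cytosolic and mitochondrial chaperones, 5 rose and none fell (11.1% against 3.54% of all features), 31 lay above 0, and the median difference was 0.07. This list, like the others, was chosen with earlier results of these data known. The promoters of the 2 called members that hold a heat shock element, the sequence heat shock factors bind, are shown on the same 160 bases, with GAANNTTC in capitals.
Dnajb1 (chr19:41431112-41431271, minus strand): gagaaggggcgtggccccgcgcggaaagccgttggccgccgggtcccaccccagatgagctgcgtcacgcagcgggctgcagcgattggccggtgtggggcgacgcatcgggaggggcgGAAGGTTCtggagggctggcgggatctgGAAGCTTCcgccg
Dnaja1 (chr5:60638274-60638433, plus strand): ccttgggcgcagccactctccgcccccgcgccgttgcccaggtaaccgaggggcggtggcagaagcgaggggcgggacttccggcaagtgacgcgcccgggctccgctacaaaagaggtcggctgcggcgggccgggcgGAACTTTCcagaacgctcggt
The pattern GAANNTTC is symmetric, so a match on either strand is a match on both, though the 2 middle bases can differ. GAANNTTC was present in 2290 of 27457 promoters (8.34%), in 12 of 37 matched members of the list (32.4%), and in 2 of the 5 called. Here too a match is a description of sequence and not a measured site of binding.

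Dnaja1, a co-chaperone of Hsp70, had medians of -0.77 in WT (-0.91 to 0.04) and -0.10 in CR-L (-0.53 to 0.67). All WT samples but replicate 1 lay at or below -0.72, and every CR-L sample was above the WT median. The difference of 0.67 ± 0.19 (adjusted p = 0.0423) was the second largest increase among genes with an established symbol. It missed the threshold with slide as a block (adjusted p = 0.0657) and without any of 13 single arrays (up to 0.0969, without WT replicate 4). Dnajb1, the main co-chaperone of inducible Hsp70, had medians of -0.42 (-0.51 to 0.18) and 0.12 (-0.22 to 0.47), a difference of 0.43 ± 0.11 (adjusted p = 0.0174). It was 0.0564 without WT replicate 2 and 0.0540 without WT replicate 5. Hspa4, a nucleotide exchange factor of Hsp70, was higher by 0.40 ± 0.10 (adjusted p = 0.0161). It lost its call without WT replicate 4 (0.0568), and its other probe had the opposite sign. Hspa14, a ribosome-associated Hsp70, rose from a median of -0.30 (-0.47 to -0.12) to -0.02 (-0.24 to 0.20), by 0.28 ± 0.05 (adjusted p = 0.00365). Tcp1, a subunit of the chaperonin that folds actin and tubulin, rose by 0.26 ± 0.06 (adjusted p = 0.0133). Single arrays moved the count for this list from 3 (without WT replicate 2, 4 or 5) to 9 (without WT replicate 1). Under median centring 3 members were called, and after scaling none.

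Of 36 chaperones and stress genes of the endoplasmic reticulum, 1 rose (2.78%, against 3.54% of all features). Pdia4, a protein disulfide isomerase, had medians of -0.32 in WT (-0.53 to -0.03) and 0.13 in CR-L (-0.16 to 0.38), a difference of 0.39 ± 0.08 (adjusted p = 0.00595).

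**Figure D3:**
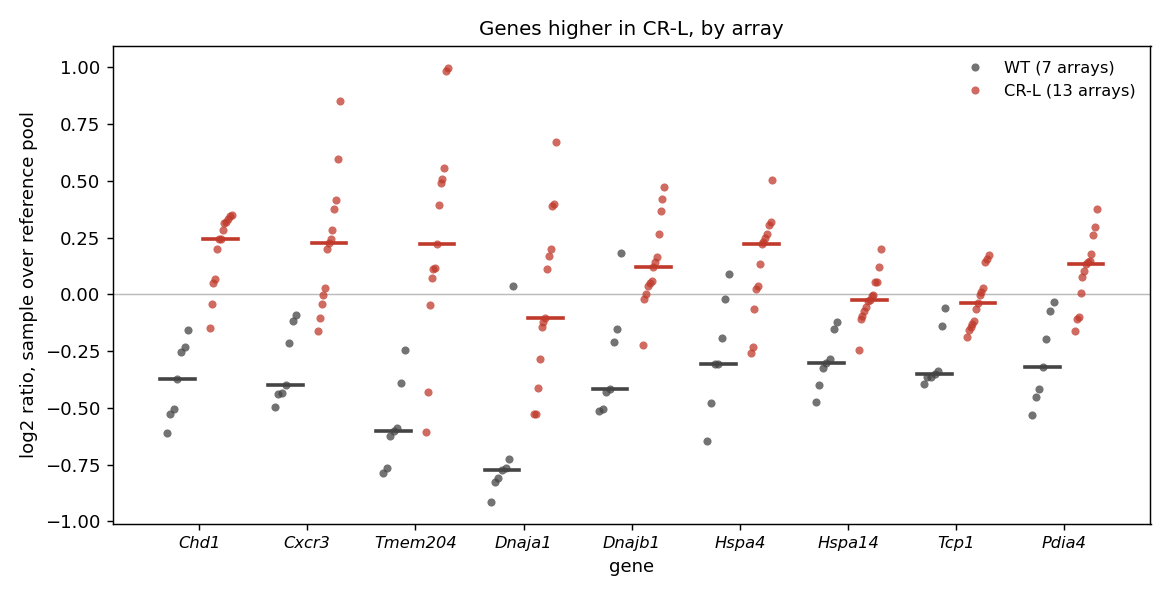
Log2 ratio of sample over reference pool (y axis) for 9 genes higher in CR-L (x axis), 1 point per array, WT in grey and CR-L in red, bars at the group medians. For Chd1 every CR-L point lies above every WT point. For Dnaja1, WT replicate 1 lies at 0.04, apart from the other WT samples.

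None of 35 genes of the leptin receptor and JAK-STAT list passed (limma with Benjamini-Hochberg adjustment), 5 had an unadjusted p under 0.05 (14.3%, against 16.6% of all features), and the median difference was 0.00. The leptin receptor Lepr was not among the tested features. Stat3 had a difference of 0.19 ± 0.06 (adjusted p = 0.0632), with 11 of 13 CR-L samples above every WT sample, and passed without CR-L replicate 9 or 10 (0.0365 and 0.0326). For Jak2 it was 0.09 ± 0.06 (adjusted p = 0.453). Socs3, the inhibitor that leptin induces, was at -0.10 ± 0.18 (adjusted p = 0.843), and Socs4, of the same family, at -0.18 ± 0.06 (adjusted p = 0.0976, and 0.0168 without CR-L replicate 11). The count for the list was 1 without WT replicate 7 or CR-L replicate 9, 10 or 11, and 0 without any other single array.

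In insulin signalling, 2 of 42 genes fell and 1 rose (7.14%, against 3.54% of all features). This count was 1 without WT replicate 4. Irs2, an adaptor of the insulin receptor, had medians of 0.48 in WT (0.11 to 0.69) and -0.13 in CR-L (-0.67 to 0.57). The difference was -0.56 ± 0.14 (adjusted p = 0.0214), and 0.0654 without WT replicate 4. The 4 other probes of Irs2 had the same sign, but its call was lost with the mean over probes of a gene. Foxo1, a transcription factor that insulin signalling keeps out of the nucleus, had medians of 0.37 (-0.06 to 0.74) and -0.07 (-0.29 to 0.24), a difference of -0.48 ± 0.09 (adjusted p = 0.00302). WT replicate 7 was the only WT sample below 0. Pdpk1, a kinase that activates Akt, was higher by 0.22 ± 0.06 (adjusted p = 0.0448), and 13 single arrays ended that call (up to 0.135, without WT replicate 4). The insulin receptor gene Insr did not differ measurably, at -0.02 ± 0.07 (adjusted p = 0.921).

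**Figure D4:**
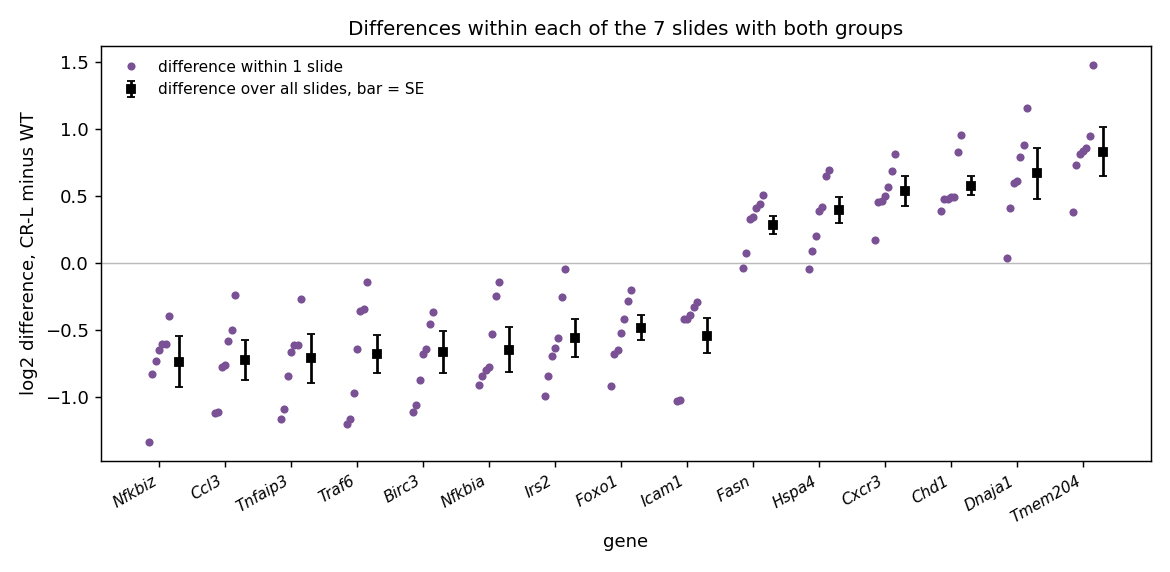
CR-L minus WT difference on the log2 scale (y axis) for 15 genes (x axis). Purple points are differences within each of the 7 slides that hold both groups, and black squares with bars are the differences over all slides with their SE. Only Fasn and Hspa4 cross 0 among the genes shown.

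Among genes of lipid metabolism the few called members all rose, by small amounts. Of 37 genes of fatty acid synthesis, uptake and storage, 3 rose (8.11%, against 3.54% of all features). Single arrays left out moved this count from 2 to 5. Fasn, the fatty acid synthase, had medians of -0.25 in WT (-0.40 to 0.01) and 0.02 in CR-L (-0.35 to 0.36), a difference of 0.29 ± 0.07 (adjusted p = 0.0112). Agpat1, an enzyme of phospholipid and triglyceride synthesis, was higher by 0.24 ± 0.05 (adjusted p = 0.00754), with 12 of 13 CR-L samples above every WT sample. Slc27a4, a fatty acid transporter, was higher by 0.23 ± 0.06 (adjusted p = 0.0285). It lost its call without WT replicate 2, 3, 4 or 5 (up to 0.10). Of 29 genes of mitochondrial fatty acid oxidation, 2 rose (6.90%), and the count was 0 without WT replicate 4. Cpt2, which hands acyl groups to the mitochondrial matrix, was at 0.24 ± 0.07 (adjusted p = 0.0314) and Hadha, a subunit of the trifunctional protein, at 0.18 ± 0.04 (adjusted p = 0.0183). Neither call held without WT replicate 4 (0.0505 and 0.0622) or 5 (0.0743 and 0.0625), and Cpt2 also lost it without WT replicate 2 or 6 or CR-L replicate 2 (0.0809, 0.0815 and 0.0523). Cpt1a, the gate of mitochondrial fatty acid uptake, was at 0.05 ± 0.10 (adjusted p = 0.877). For Srebf1, the transcription factor of lipid synthesis, the difference was 0.01 ± 0.07 (adjusted p = 0.953), and its sign was negative under some settings. Slc27a2, a fatty acid transporter whose samples fell far apart in both groups (-3.92 to 0.53 in WT, -4.03 to 1.82 in CR-L), was at -1.01 ± 0.83 (adjusted p = 0.602).

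Of 37 cholesterol genes, 2 rose (5.41%, against 3.54% of all features), and the count was 0 without WT replicate 2. Insig2, which retains the sterol sensor in the endoplasmic reticulum, and Nsdhl, an enzyme of the pathway, were each near the threshold (adjusted p = 0.0471 and 0.0493). Leaving out any of 16 single arrays ended the call for Insig2 (up to 0.143, without WT replicate 6), as did any of 15 for Nsdhl (up to 0.164, without WT replicate 4). None of the 25 glycolysis genes passed, and 6 had an unadjusted p under 0.05, all higher (24.0%, against 16.6% of all features). Pfkl, a phosphofructokinase, was at 0.13 ± 0.04 (adjusted p = 0.0873, and 0.0386 without WT replicate 7). In one-carbon and methyl donor metabolism 3 of 29 genes rose and 1 fell (13.8%, against 3.54% of all features). This count was 1 without WT replicate 4. Mat2a, the enzyme that makes the methyl donor S-adenosylmethionine, had medians of -0.28 (-0.55 to 0.15) and 0.23 (-0.20 to 0.65) and a difference of 0.47 ± 0.12 (adjusted p = 0.0200). Without WT replicate 4, 5 or 6 the adjusted p was 0.0554, 0.0540 and 0.0608. Psph, the last enzyme of serine synthesis, was higher by 0.21 ± 0.06 (adjusted p = 0.0304), and Mthfs, an enzyme of folate metabolism, lower by -0.29 ± 0.07 (adjusted p = 0.0172). Psph lost its call without WT replicate 2, 4, 5 or 6 or CR-L replicate 2 (up to 0.0964), and Mthfs without WT replicate 5 (0.0553).

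Chd1, a remodeller that binds active chromatin, had the smallest p of all named genes. It lay between -0.61 and -0.16 in WT (median -0.37) and between -0.15 and 0.35 in CR-L (median 0.24), with no overlap. The difference was 0.58 ± 0.07 (adjusted p = 3.22e-05), positive within all 7 slides, by 0.39 to 0.96. It kept its call whichever array was left out and under median centring (0.72, adjusted p = 0.0135), but not after scaling (0.82, adjusted p = 0.141), and 1 of its 2 other probes had the opposite sign. It was the only 1 of 62 chromatin remodellers and histone modifiers called (1.61%, against 3.54% of all features). A further 4 named genes had ranges that did not overlap. These were Rin3, a guanine exchange factor of Rab GTPases (0.46 ± 0.07, adjusted p = 0.000766), the splicing factor Srsf9 (0.30 ± 0.05, adjusted p = 0.000766), Taf9, a subunit of general transcription factor complexes (-0.34 ± 0.06, adjusted p = 0.00163), and Smim20, a factor of cytochrome oxidase assembly (-0.24 ± 0.04, adjusted p = 0.00208).

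Tmem204, a membrane protein of cell junctions, showed the largest increase among genes with an established symbol. Its medians were -0.60 in WT (-0.79 to -0.25) and 0.22 in CR-L (-0.61 to 1.00). CR-L replicates 2 and 6 were the highest and CR-L replicates 10 and 13 the lowest of their group. The difference was 0.83 ± 0.18 (adjusted p = 0.00734). Further leading increases were Hyal2, a hyaluronidase (0.53 ± 0.13, adjusted p = 0.0135), Tmem33, a membrane protein of the endoplasmic reticulum (0.53 ± 0.11, adjusted p = 0.00574), Cptp, a ceramide-1-phosphate transfer protein (0.52 ± 0.10, adjusted p = 0.00378), and the zinc finger gene Zfp260 (0.48 ± 0.08, adjusted p = 0.000948). Hyal2 lost its call without WT replicate 4 (0.0539). Leading decreases outside the lists were Ldaf1, a lipid droplet assembly factor (-0.62 ± 0.12, adjusted p = 0.00368), the zinc finger gene Zbtb10 (-0.60 ± 0.13, adjusted p = 0.00539), Ckap2, a mitotic spindle protein (-0.55 ± 0.11, adjusted p = 0.00314), Cenpk, a centromere protein (-0.54 ± 0.11, adjusted p = 0.00536), and Trib2, a pseudokinase (-0.50 ± 0.10, adjusted p = 0.00500). Each of these 5 kept its call whichever single array was left out, but none kept it under median centring. Ldaf1 and Trib2 also lost it after scaling (adjusted p = 0.502 and 0.0925). Ldaf1 lay between 0.12 and 0.34 in WT and between -0.69 and 0.26 in CR-L, where replicate 12 was the highest. In CR its values ran from -0.63 to 0.36. Gpr183, the oxysterol receptor that guides B cells, was at -0.47 ± 0.13 (adjusted p = 0.0387), and 11 single arrays ended that call (up to 0.125, without WT replicate 4).

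Of 41 cell cycle genes 2 rose and 1 fell (7.32%, against 3.54% of all features). This count was 1 without WT replicate 2. The D-type cyclins Ccnd1 (0.51 ± 0.13, adjusted p = 0.0267) and Ccnd3 (0.25 ± 0.07, adjusted p = 0.0310), which drive entry into S phase, were higher, and Mcm6, a subunit of the replicative helicase, lower (-0.29 ± 0.06, adjusted p = 0.00574). Ccnd1 lost its call without WT replicate 2, 3 or 6 (up to 0.0693), and Ccnd3 without WT replicate 2, 3, 5 or 7 (up to 0.0925).

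Of 84 cytosolic ribosomal protein genes 3 fell (3.57%, near the 3.54% of all features). In all, 75 of the 84 lay below 0, with a median of -0.10, and 28 had an unadjusted p under 0.05, each of them lower (33.3%, against 16.6% of all features). Per-array means of this list were 0.13 to 0.38 in WT, with WT replicate 1 the highest, and 0.00 to 0.17 in CR-L. The called members were Rpl21 (-0.23 ± 0.06, adjusted p = 0.0233), Rps9 (-0.15 ± 0.04, adjusted p = 0.0347) and Rpl12 (-0.18 ± 0.05, adjusted p = 0.0423). The count was 0 without WT replicate 1 or 2, 1 without WT replicate 4 or CR-L replicate 2 or 7, and 6 without WT replicate 7. Ribosomal protein genes have many near-identical pseudogenes, and 2 of the 6 other probes of Rpl21 had the opposite sign. Of 69 mitochondrial ribosomal protein genes 5 rose and 1 fell (8.70%), and this count was 1 without WT replicate 2, 4 or 5 and 3 without WT replicate 6 or CR-L replicate 2, 7 or 12. Cox7c, a subunit of cytochrome oxidase, was the only 1 of 72 oxidative phosphorylation genes called (1.39%). It fell by -0.44 ± 0.09 (adjusted p = 0.00376), while its other probe had the opposite sign. Of 45 proteasome subunits 3 rose (6.67%), and of 19 aminoacyl-tRNA synthetases 2 rose (10.5%), each by at most 0.25. The proteasome count was 0 without WT replicate 4 or 6, 1 without WT replicate 2, 3 or 5, and 2 or 3 without any other array. The synthetase count was 1 without WT replicate 2. Median centring and scaling left 0 in both lists. None of 27 antioxidant genes passed, and 4 had an unadjusted p under 0.05 (14.8%, against 16.6% of all features).

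In the list of clock genes 1 of 20 was called (5.00%, near the 3.54% of all features). Nr1d2, a repressor in the clock's second loop, fell by -0.28 ± 0.06 (adjusted p = 0.00633). The time of day of each blood sample is not in the labels. Among 21 glucocorticoid genes 1 was called (4.76%, also near that share). Fkbp5, a target of the receptor that dampens it in turn, was higher by 0.32 ± 0.09 (adjusted p = 0.0322), a call that ended without any of WT replicates 2 to 6 or without CR-L replicate 1 (up to 0.0954).

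**Figure D5:**
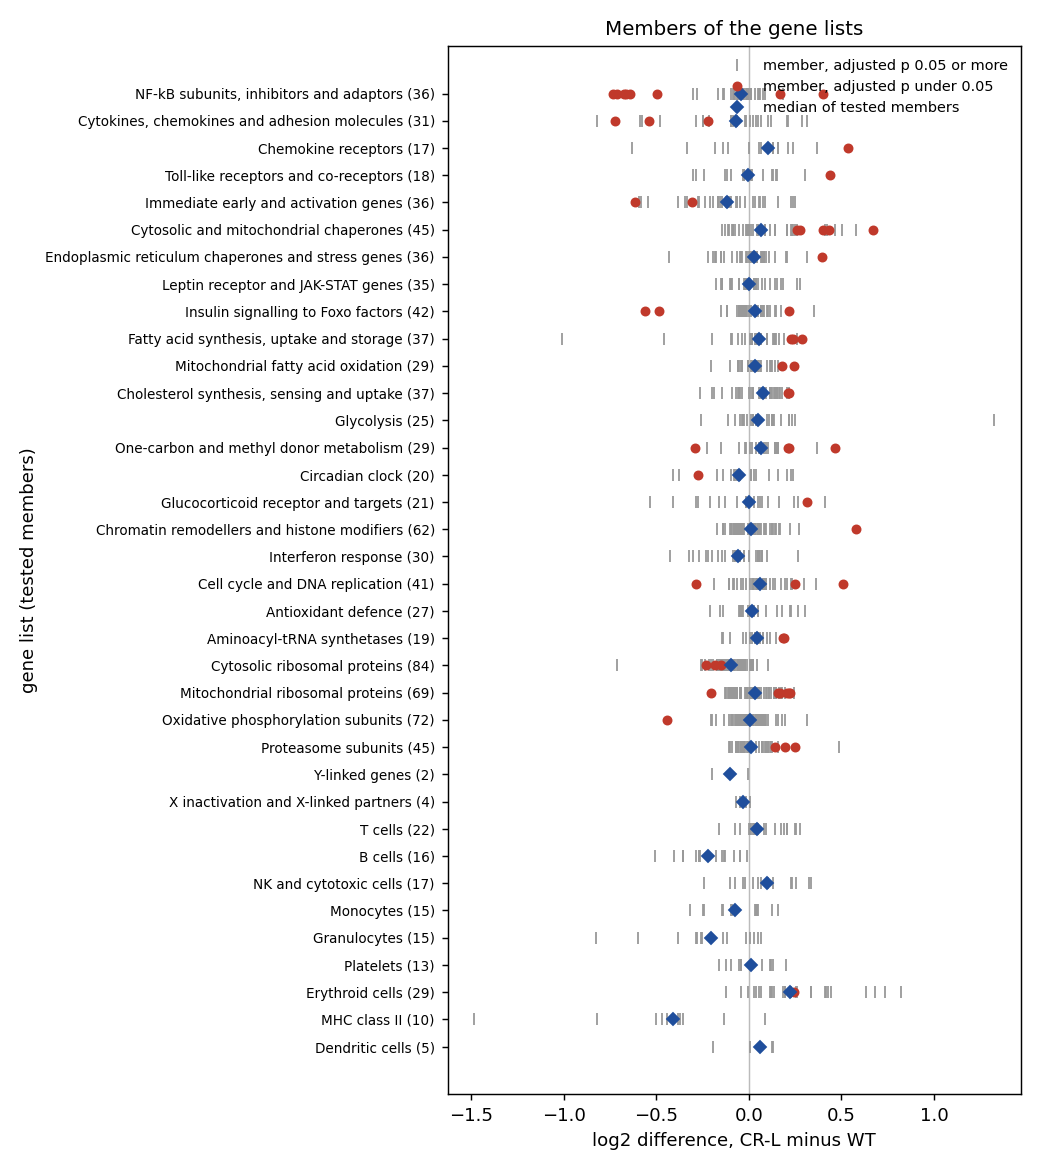
CR-L minus WT difference on the log2 scale (x axis) of every tested member of the 36 gene lists (y axis, number tested in brackets). Grey ticks are members that were not called, red points members with an adjusted p under 0.05, and blue diamonds list medians. Called members of the NF-kB list reach -0.73, and those of the chaperone list 0.67.

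Markers of single blood cell types were nearly all short of the threshold. In mixed blood cells, fewer cells of a type and less RNA per cell cannot be told apart. All 16 B cell markers lay below 0 (median -0.22), 6 of them with an unadjusted p under 0.05 (37.5%, against 16.6% of all features) and none called. The mean log2 ratio of these markers per array was -0.49 to 0.27 in WT and -0.77 to 0.32 in CR-L. Fcer2, the low-affinity IgE receptor of B cells, had the smallest p, at -0.50 ± 0.19 (adjusted p = 0.157). Of 10 MHC class II genes 9 lay below 0 (median -0.41), none was called, and 4 had an unadjusted p under 0.05 (40.0%). RT1-DOa was at -0.44 ± 0.18 (adjusted p = 0.203). T cell markers were above 0 in 19 of 22 (median 0.04), with Trat1 just short of the threshold at 0.25 ± 0.07 (adjusted p = 0.0503). Trat1 passed with slide as a block (0.0110) and without any of 5 single arrays (down to 0.0147, without CR-L replicate 13). Markers of NK and cytotoxic cells (12 of 17 above 0, median 0.10), monocytes (7 of 15, median -0.08) and granulocytes (4 of 15, median -0.21) held no called gene. Platelet markers (median 0.01) spread widely over the arrays, with per-array means of -1.50 to 0.29 in WT and -2.84 to 0.74 in CR-L. Of 29 erythroid markers 26 lay above 0 (median 0.22), and Gypc, a glycophorin, was called (0.24 ± 0.07, adjusted p = 0.0486), a call that 16 single arrays ended. Only 1 of the 29 had an unadjusted p under 0.05 (3.45%, against 16.6% of all features). Per-array means of these markers overlapped widely, at -0.74 to 0.05 in WT and -1.36 to 1.14 in CR-L. With per-array means of the T cell, B cell, monocyte and granulocyte lists as covariates, 642 features were called, among them 5 of 36 NF-kB members and 3 of 45 chaperones. The part of cell composition in the named genes was not tested further.

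Sex could not be set against the groups from the labels, since these name female and male control offspring without saying which sample is which. The Y-linked gene Ddx3y lay between 0.01 and 0.44 in WT and between -0.42 and 0.46 in CR-L, a difference of -0.20 ± 0.08 (adjusted p = 0.174). For Eif2s3y, also Y-linked, the difference was 0.00 in size (SE 0.08, adjusted p = 0.990). With the mean of the Y-linked genes as a covariate, 408 features were called, 270 of them higher, and 2 of the 36 NF-kB members. That mean was 0.00 to 0.23 per array in WT and -0.30 to 0.26 in CR-L. Whether it tracks sex was not tested, so this fit cannot be read as an adjustment for sex. Xist was not among the tested features.

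Restricted offspring without leptin differed from the same 7 WT samples in 102 of the 22262 features, and 101 of these were among the 787. All 94 called named genes had a CR difference of the same sign. CR-L and CR were not compared with each other here, so these counts do not show which features are particular to CR-L. Because both comparisons use the same WT samples, no agreement between them is counted as support. Side by side, the difference of CR and of CR-L from WT was 0.45 and 0.58 for Chd1, 0.44 and 0.54 for Cxcr3, -0.63 and -0.73 for Nfkbiz, -0.60 and -0.68 for Traf6, -0.36 and -0.71 for Tnfaip3, 0.62 and 0.67 for Dnaja1, and 0.24 and 0.29 for Fasn. Of these 7, Chd1 (adjusted p = 0.00336) and Traf6 (0.0494) passed the threshold in CR.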

How the data were processed

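Peripheral blood mononuclear cell RNA was measured on 31 Agilent 2-colour arrays, 1 per sample, of which 7 WT and 13 CR-L are compared here. The authors deposited scanner files with spot intensity and local background intensity per channel, and with the scanner software's own log10 ratio of red over green. Per the file headers, that ratio had its background detrended and its dyes normalized. The submitters' processing notes name Agilent Feature Extraction (10.7.3.1). A deposited table of the whole series holds log2 values with every array at a common median, and its further steps are not given in the sources used here. The dyes were not swapped, per the labels.

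Mean spot intensities were background-corrected with limma 3.58.1 in R 4.3.3 (normexp, offset 50), then normalized by loess within each array, with nothing done between arrays. Control spots (1639 of 45018) and outlier-marked spots (5483 values) were left out, and spots of a probe were averaged (41012 probes). A probe was kept if 7 or more of the 31 arrays had its red signal well above background (26721 probes), and the brightest probe stood for a gene, which left 22262 features. Names were updated through the RefSeq table of GRCr8, used for names and promoters only, and 17616 probes had no symbol. The files give positions on the build rn4.

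Groups were compared with limma (lmFit and eBayes, two-sided, Benjamini-Hochberg adjustment, threshold 0.05) over all 31 arrays. The labels state no test, and the number of arrays limits the precision. Named genes were the 20 largest and the 10 smallest p per direction among called features with an established symbol, up to 5 called members of each of 36 gene lists (or the 2 with the smallest p where none was called), and a fixed set of leptin, insulin, lipid, NF-kB and chaperone genes, with some given by count only. The comparison, the members and the lists were chosen with earlier results of these data known. Alternatives covered background correction, normalization, filters, probes, blocks, covariates, the series table and each array left out. The fit was tested on simulated data with independent normal noise per feature and array. That simulation held no shared litters or slides and no normalization step, so it says nothing about those limits.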

Additional observations from a re-analysis of the deposited data

Results flagged for a closer look

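In 16 of the 164 named genes and list means tested, 1 WT sample lay apart from the other 6, by the gap to its neighbour relative to the range of the group. Chance gives about 1 in 20 such cases per test, and the tests share their samples. All values are log2 ratios over the reference pool.

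WT replicate 1 was the sample apart in 9 of the 16. Among genes it lay high for Dnaja1 at 0.038 (other WT samples -0.914 to -0.724), Fkbp5 at 0.256 (other WT samples -0.335 to -0.099) and Rpl12 at 0.503 (other WT samples 0.148 to 0.214). It lay low for Map3k9 at 0.125 (other WT samples 0.336 to 0.485), a kinase that activates JNK, and Fcer2 at -0.674 (other WT samples -0.026 to 0.285). Among list means it was high for the chaperones at 0.053 (other WT samples -0.239 to -0.113), the cytosolic ribosomal proteins at 0.383 (other WT samples 0.125 to 0.187) and the NK and cytotoxic cell markers at 0.27 (other WT samples -0.158 to -0.038). It was low for the B cell markers at -0.492 (other WT samples 0.022 to 0.269).

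WT replicate 4 was apart for Gpr183 at 0.746 (other WT samples 0.063 to 0.357) and Mrps34 at -0.494 (other WT samples -0.252 to -0.077), a mitochondrial ribosomal protein gene. WT replicate 6, the brightest array, was apart for Insr at -0.511 (other WT samples 0.009 to 0.208) and for the one-carbon list mean at -0.126 (other WT samples -0.069 to -0.04). WT replicate 7 was apart for Pdhb at -0.343 (other WT samples -0.161 to -0.027), a subunit of pyruvate dehydrogenase, and for the cholesterol list mean at 0.073 (other WT samples -0.039 to -0.002). WT replicate 5 was apart for Cpt1a at -0.627 (other WT samples -0.107 to 0.18).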

How the results depend on the processing

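The 787 features called were 552 to 1017 under the Agilent log ratio, no normexp offset, the red channel alone, another filter or probe rule, the 20 arrays alone, slide as a block and array weights, and unchanged under Aquantile, which leaves log ratios as they are. Median centring called 75 (72 higher, 3 lower), scaling between arrays 119 (63 and 56), and median centring without WT replicate 6 called 1 (1 and 0). The higher share was 60.6% of calls under loess and 96.0% under median centring, where the median of all features was 0.07. The series table called 500 (264 higher), erythroid and platelet means as covariates 1247 (767 and 480), Y-linked genes as a covariate 408 (270 and 138), and without CR-L replicates 2 and 6 the fit called 571 (203 lower). Leaving out each array in turn gave 423 to 1099 in all, 262 to 664 higher and 161 to 435 lower. The cause was not tested. Scaling, median centring without WT replicate 6 and leaving out CR-L replicates 2 and 6 were chosen after the data had been seen. Probes not well above background limit what low genes can show.

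Of the 94 called named genes, 52 kept their call without any single array and 42 lost it without at least 1. The replicate numbers shared by the groups did not pair the samples, since same-number correlations ran from -0.157 to 0.369 over 7 pairs, and only replicate 4 correlated best with its own number. With the replicate block, 921 features were called (473 higher, 448 lower), and 81 of the 94 kept their call. Of the 94, 59 kept it with the Y-linked covariate, 64 in the series table, 66 with lineage covariates, 68 with red alone and 72 with the mean over probes. Median centring and scaling kept 21 and 20, and the other settings that used every array 73 or more.

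Called genes that reversed were Rps9 (0.048) and Rpl12 (0.017), both under median centring. The others that changed sign had not been called. Under median centring these were Eif2s3y (0.12), Usp9x (0.14), Zfx (0.0014) and Socs3 (0.0026), and without WT replicate 6 as well Eif2s3y (0.10) and Usp9x (0.12). After scaling they were Eif2s3y (0.20) and Tcf4 (0.0089). With red alone they were Eif2s3y (0.054) and Insr (0.0062), and with slide as a block Eif2s3y (0.0086) and Insr (0.00063). The replicate block turned Zfx (0.0050) and Insr (0.031), and the Agilent log ratio Srebf1 (-0.0045). Array weights turned Eif2s3y (0.059), the series table Eif2s3y (0.011) and the mean over probes Usp9x (0.13). Lineage covariates turned Eif2s3y (0.019) and Srebf1 (-0.033), erythroid and platelet covariates Eif2s3y (0.0093) and Insr (0.0058), and the Y-linked covariate Eif2s3y (0.094) and Cpt1a (-0.021). Without CR-L replicates 2 and 6, Eif2s3y (0.015), Socs3 (0.043) and Srebf1 (-0.0048) changed sign. Single arrays left out moved 4 genes across 0. Eif2s3y ran from -0.038 to 0.062, Srebf1 from -0.016 to 0.054, Insr from -0.11 to 0.0098 and Cpt1a from -0.042 to 0.093.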

Other observations

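The genes with the smallest p-values included members of none of the lists described above. Dcaf7, an adaptor of ubiquitin ligases, had a difference of 0.40 ± 0.06 (adjusted p = 0.000179), though its other probe had the opposite sign. Rbm12, an RNA-binding protein, was higher by 0.45 ± 0.07 (adjusted p = 0.000363), and its WT samples (-0.38 to -0.11) overlapped only 1 of the 13 CR-L samples (-0.16 to 0.44). Prep, a peptidase that cuts after proline, was higher by 0.37 ± 0.06 (adjusted p = 0.000766), as was the zinc finger gene Zfp444 by 0.32 ± 0.05 (adjusted p = 0.000766). Among those that fell, Rnf139, a ubiquitin ligase of the endoplasmic reticulum, had the smallest p (-0.33 ± 0.05, adjusted p = 0.000766). Rbm39, a splicing factor, fell by -0.43 ± 0.07 (adjusted p = 0.00151) and Cnot6, a deadenylase that shortens mRNA tails, by -0.28 ± 0.05 (adjusted p = 0.00245).

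Some genes that were not called had differences larger than any called gene, because their samples fell far apart within both groups. Ldhb, a lactate dehydrogenase subunit, had a difference of 1.33 ± 0.64 (adjusted p = 0.293), and the MHC class II gene RT1-Bb one of -1.49 (adjusted p = 0.582). Both were picked out after their values had been seen.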
